A study of Mus musculus with 32 samples.

Results

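MiRNA expression in Cor.At cardiomyocytes was compared between day 19 and day 12 of differentiation, the first week after the purified cells had been plated. All array records titled day 19 (a and b) or day 12 (a and b) were taken, apart from the Febit records that were not VSN normalized, which left 12 of the 32 array records of the series. The 12 records hold 4 RNA samples. Each sample was hybridized to an Affymetrix GeneChip miRNA array and to a Febit Geniom Biochip, and the Affymetrix hybridizations were deposited after 2 normalizations (VSN and RMA), so that 3 data sets resulted. The day 19 samples were Cor.At cardiomyocytes kept in culture for 7 days after seeding. The day 12 samples were the same kind of cells collected 6 h after they had been seeded on fibronectin, following embryoid body formation and puromycin selection. Cells of both days came from 1 transgenic mouse ES cell clone, aPIG44, derived from D3 ES cells, in which the cardiac alpha-MHC promoter drives puromycin resistance and EGFP. The selection therefore keeps cells with an active alpha-MHC promoter, and what was measured applies to 1 clone. The treatment text attached to most day 19 records names the same 6 h collection as at day 12, whereas that of the Affymetrix RMA record of day 19 a gives 7 days, so the day was taken from the titles. Each day was represented by a and b, described as independent experiments, and the p-values below measure the spread between these samples.

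MiRNAs are short RNAs of which bases 2 to 8, the seed, pair with target mRNAs and lower their translation and stability. Members of the let-7 family are held back in ES cells, where Lin28 blocks their maturation, and accumulate as cells differentiate, repressing targets such as Hmga2, Ras and Lin28 itself. The miR-17 family is encoded by the miR-17-92 cluster and its paralogues and is known for promoting proliferation in ES cells and in the fetal heart. The cardiomyocyte miRNAs miR-1 and miR-133a repress smooth muscle and proliferation genes, and miR-208a, miR-208b and miR-499 lie in introns of the myosin heavy chain genes Myh6, Myh7 and Myh7b.

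Members of 2 seed families recur in the results below, and their sequences are printed because the members of each differ outside the seed in only a few bases. The sequences are RefSeq mature miRNAs on GRCm38.p6, written 5′ to 3′ with the seed in capitals. Of 23 array names looked up, 22 matched. The older array names give no arm, and the 5p form is printed (3p for miR-19b and miR-210). The let-7 seed family on both arrays had 9 members.
let-7a: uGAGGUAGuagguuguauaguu
let-7b: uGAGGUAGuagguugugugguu
let-7c: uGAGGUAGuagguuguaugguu
let-7d: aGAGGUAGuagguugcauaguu
let-7e: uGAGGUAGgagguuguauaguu
let-7f: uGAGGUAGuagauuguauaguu
let-7g: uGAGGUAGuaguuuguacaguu
let-7i: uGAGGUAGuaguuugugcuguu
miR-98: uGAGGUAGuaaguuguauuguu
Counted from 1 at the 5′ end and with the base of let-7a first, let-7c differs from let-7a by A19G, let-7e by U9G and let-7f by G12A. let-7b differs from let-7a by A17G and A19G. The gene of let-7b lies at chr15:85707325-85707346 (+ strand), close to 1 of the 2 let-7c loci, let-7c-2 at chr15:85706616-85706637 (+ strand). The other let-7c locus, let-7c-1 at chr16:77599672-77599693 (+ strand), neighbours miR-99a at chr16:77598940-77598961 (+ strand).

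The miR-17 seed family had 6 members, to which miR-18a and miR-19b of the same clusters are added with their own seeds.
miR-17: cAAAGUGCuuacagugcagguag
miR-20a: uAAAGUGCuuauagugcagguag
miR-20b: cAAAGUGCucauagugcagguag
miR-106a: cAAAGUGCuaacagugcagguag
miR-106b: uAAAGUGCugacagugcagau
miR-93: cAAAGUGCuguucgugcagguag
miR-18a: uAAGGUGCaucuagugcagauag
miR-19b: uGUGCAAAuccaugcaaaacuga
With the base of miR-17 first, miR-106a differs from miR-17 by the single change U10A and miR-20a by C1U and C12U. MiR-17, miR-18a, miR-20a and miR-19b-1 lie together on chromosome 14, with miR-17 at chr14:115043684-115043706 (+ strand). MiR-106a, miR-20b and miR-19b-2 form the paralogue on the X chromosome, with miR-106a at chrX:52742541-52742563 (− strand), and miR-93 and miR-106b lie together on chromosome 5. Because probes of such similar miRNAs can bind each other's targets, the signals of the members are not fully separate measurements, and cross-hybridization was not tested.

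The Affymetrix arrays of both days resembled each other. The Spearman correlation over 609 miRNAs was 0.86 between the day 19 arrays, 0.91 between the day 12 arrays and 0.84 to 0.89 across the days after VSN. On the Febit arrays the correlation over 710 miRNAs was 0.88 within day 19 but 0.48 within day 12, and the day 12 arrays reached only 0.08 to 0.20 with those of day 19 and −0.13 to 0.30 with those of days 0 and 26. By rank, the Febit day 12 arrays thus stood apart from the other Febit arrays. Pearson's r, in which bright miRNAs weigh more, showed this less: after VSN it was 0.77 within day 12 and 0.50 to 0.59 between day 12 and day 19, close to the 0.50 to 0.53 between day 0 and day 19 but below the 0.81 to 0.91 between day 19 and day 26. The Febit array of day 26 b had a median raw intensity of 228, against 928 to 992 on the other arrays. It enters the estimate of the spread, the mean raw intensities relative to the array median and the comparisons with day 26. Among the Febit records left out, those titled day 12 a and day 19 b carried each other's values.

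The cardiac label was checked with markers. On the Affymetrix arrays miR-1 had log2 levels (VSN) of 10.83 and 9.99 at day 19 and 10.25 and 9.60 at day 12, against 2.84 and 1.10 in undifferentiated ES cells of day 0. MiR-133a was likewise far above its day 0 level on both days. MiR-208a, with 2.00 and 2.25 at day 19 and 2.43 and 2.19 at day 12, was close to its own day 0 levels of 1.37 and 2.17 on the Affymetrix array, whereas on the Febit array it was above day 0 on both days. The 10 ES cell markers averaged 3.01 and 3.92 at day 19 and 4.06 and 4.58 at day 12, and 3 of them were lower at day 19 at an unadjusted p under 0.05. These were miR-293, miR-302a and miR-302d. Of them, miR-302a and miR-302d were higher at day 12 than at day 0. The miR-290 cluster members miR-290-5p and miR-292-3p were still at 4.82 to 7.34 at day 19 and at 6.78 to 8.39 at day 12, below the 12.12 to 12.68 of day 0.

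After VSN on the Affymetrix platform, 2 of the 609 miRNAs rose at day 19 relative to day 12 at a limma adjusted p under 0.05 (Benjamini-Hochberg), and both were let-7 members, let-7b and let-7c. That is 0.328% of the miRNAs tested, against 0.0% called lower. At an unadjusted p under 0.05, 29 miRNAs were higher (4.76%) and 54 lower (8.87%) at day 19. Both day 19 values lay above both day 12 values for 90 miRNAs (14.8%) and below them for 180 (29.6%). The median log2 fold change of all miRNAs was −0.19, with 240 higher and 369 lower. Centring each array on its median moved it to 0.09, with 334 higher, so that small differences in either direction have no settled sign. VSN values are on a generalized log2 scale that becomes linear near background, so fold changes of dim miRNAs are not true ratios.

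**Figure D1:**
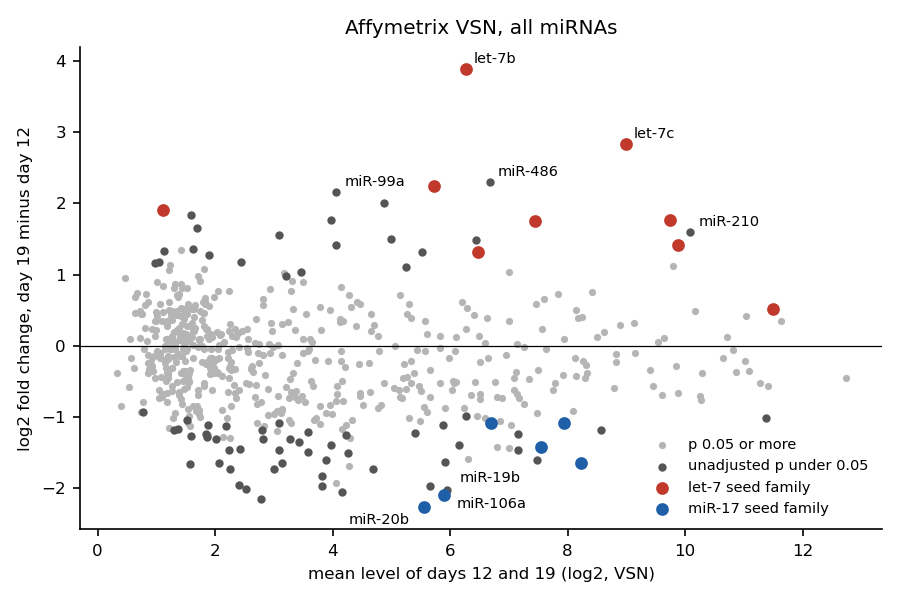
Log2 fold change of each of 609 miRNAs (day 19 minus day 12, Affymetrix VSN) plotted over its mean log2 level at both days, with the let-7 seed family in red, the miR-17 seed family in blue, and other miRNAs dark grey at an unadjusted p under 0.05 and light grey above it. All 9 red points lie above 0 and all 6 blue points lie below −1, whereas most miRNAs scatter around the median of −0.19.

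All 9 members of the let-7 seed family had higher levels at day 19 than at day 12, with both day 19 values above both day 12 values in each case. let-7b had log2 levels of 8.12 and 8.31 at day 19, against 3.75 and 4.89 at day 12. It rose by 3.89 ± 0.68 (SE) on the log2 scale (14.8-fold, limma adjusted p = 0.0298). let-7c, which differs from let-7b in 1 base, measured 10.28 and 10.51 at day 19 and 7.22 and 7.91 at day 12. It rose by 2.83 ± 0.50 (SE, 7.10-fold, limma adjusted p = 0.0298). Both calls were lost without single arrays, where the remaining array of that day is assumed to vary like the other days. The limma adjusted p of both miRNAs was 0.227 without day 12 a and 0.0709 without day 12 b, and that of let-7c was 0.0519 without day 19 b. After quantile normalization it was 0.177 for let-7b and 0.281 for let-7c. The differences themselves stayed between 3.32 and 4.46 for let-7b and between 2.48 and 3.17 for let-7c under all 11 alternatives on these arrays. In bulk RNA, a change in the share of cells holding a miRNA and a change in the amount per cell cannot be told apart.

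The other 7 members did not pass the adjusted threshold one by one. let-7f, encoded beside let-7a and let-7d on chromosome 13, had 6.61 and 7.10 at day 19, against 3.88 and 5.34 at day 12, a difference of 2.25. miR-98, which shares a locus on the X chromosome with a further let-7f copy, measured 1.93 and 2.19 at day 19 and 0.33 and −0.01 at day 12, all of them low, as at day 0 with 0.30 and 1.87. let-7d had 10.23 and 11.02 at day 19 and 8.75 and 8.95 at day 12, a difference of 1.77. let-7a differed by 1.41, with 10.38 and 10.80 at day 19 and 8.97 and 9.39 at day 12, let-7i by 1.75 and let-7g by 1.31. let-7e was the member nearest to 0, at 11.66 and 11.84 at day 19 and 11.30 and 11.18 at day 12, and so already high at day 12. Of the 9 members, 8 had an unadjusted p under 0.05, against 4.76% of all miRNAs in this direction, and the median difference of the family was 1.77 (0.51 to 3.89), against −0.19 over all miRNAs. Under centring and quantile normalization all 9 stayed higher at day 19 (0.79 to 4.17 and 1.04 to 3.97). Along the whole course, the median level of the family after VSN was 4.96 at day 0, 6.57 at day 12, 8.33 at day 19 and 10.42 at day 26. From day 0 to day 12, 7 of the 9 rose, but let-7b, with 6.22 and 3.86 at day 0, did not. In the following week all 9 were higher again after VSN, at day 26 than at day 19, by a median of 1.54. After RMA the course was 6.46 at day 0, 6.76 at day 12, 8.60 at day 19 and 9.92 at day 26, with 8 of 9 higher at day 26 than at day 19. The let-7 list with its 8 passenger strands had a median of 0.51 over 17 members, of which 14 were higher and 8 passed the unadjusted threshold, all of them mature let-7 forms.

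**Figure D2:**
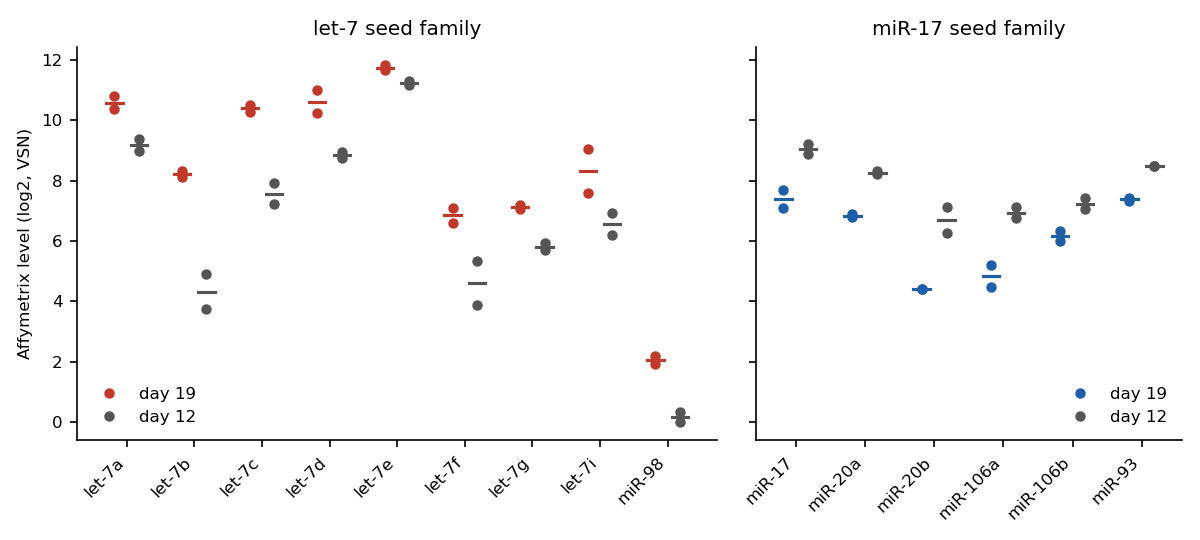
Affymetrix log2 levels (VSN) of the 9 let-7 seed family members (left panel) and the 6 miR-17 seed family members (right panel), with 1 point per array, coloured for day 19 and grey for day 12, and a bar for the mean of 2 arrays. The points of both days are separate for each member, day 19 above day 12 in the let-7 family and below it in the miR-17 family.

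The miR-17 seed family differed in the opposite direction on the Affymetrix platform. All 6 members were lower at day 19 and their values did not overlap with those of day 12, but none passed the adjusted threshold after VSN. MiR-20b, of the cluster on the X chromosome, had 4.41 and 4.42 at day 19, against 7.12 and 6.25 at day 12, a difference of −2.27 ± 0.46 (SE, limma adjusted p = 0.0682). MiR-106a, its neighbour, had 4.47 and 5.21 at day 19 and 7.11 and 6.77 at day 12, a difference of −2.10 ± 0.45 (SE, limma adjusted p = 0.0689). Both had been at 8.27 to 9.22 in ES cells of day 0. MiR-17 measured 7.09 and 7.70 at day 19, against 9.20 and 8.90 at day 12, a difference of −1.65 ± 0.44 (SE, limma adjusted p = 0.144). MiR-20a measured 6.78 and 6.88 at day 19 and 8.31 and 8.21 at day 12, a difference of −1.43. MiR-93 and miR-106b, from the cluster on chromosome 5, each differed by −1.08. All 6 had an unadjusted p under 0.05, against 8.87% of all miRNAs in this direction, with a median of −1.54.

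Most of the other members of these clusters were lower as well. MiR-19b had 5.37 and 4.50 at day 19, against 7.16 and 6.77 at day 12, a difference of −2.03 ± 0.49 (SE, limma adjusted p = 0.133). MiR-18a and miR-92a differed by −1.40 and −1.19. MiR-19a, with 1.63 and 2.05 at day 19 and 1.93 and 0.94 at day 12, overlapped between the days. Over all 21 members of miR-17-92 and its paralogues the median was −1.08, with 19 lower, 17 below without overlap and 13 lower at an unadjusted p under 0.05, beside 369 of 609 lower, 29.6% below without overlap and 8.87% under that threshold among all miRNAs. The median level of the 6 seed family members was 8.36 at day 0, 7.75 at day 12, 6.49 at day 19 and 6.70 at day 26, with 6 of 6 members slightly higher at day 26 than at day 19 after VSN. After RMA the course was 9.98 at day 0, 7.75 at day 12, 6.90 at day 19 and 6.50 at day 26, with 1 of 6 higher at day 26 than at day 19, so the order of days 19 and 26 and the level at day 0 relative to day 12 depend on the normalization.

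Several single miRNAs stood out next to both families. MiR-486, a muscle-enriched miRNA from an intron of Ank1, measured 8.20 and 7.46 at day 19, against 5.37 and 5.68 at day 12 and 2.76 and 2.76 at day 0. The difference was 2.30 ± 0.48 (SE, limma adjusted p = 0.0682), without overlap. MiR-210, the miRNA best known as a target of hypoxia-inducible factor, had 10.94 and 10.84 at day 19 and 9.58 and 9.00 at day 12, a difference of 1.60 ± 0.44 (SE, limma adjusted p = 0.162). It was at 9.86 and 9.97 at day 26, below both day 19 values. On the Febit array miR-210 overlapped between the days, with raw intensities of 3217 and 1744 at day 19 and 3557 and 1532 at day 12. Its VSN difference there was 0.18 (limma adjusted p = 0.892). MiR-99a, the neighbour of let-7c-1 and a repressor of mTOR, had 5.71 and 4.57 at day 19, against 3.74 and 2.22 at day 12, a difference of 2.16 ± 0.57 (SE, limma adjusted p = 0.144). MiR-100 shares its seed and differed by 1.31, with 6.51 and 5.86 at day 19 and 5.35 and 4.39 at day 12.
miR-99a: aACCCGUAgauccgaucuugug
miR-100: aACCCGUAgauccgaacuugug
Over the 9 listed members of the miR-99 and miR-125 families the median was 0.12, with 3 at an unadjusted p under 0.05, all higher. MiR-125b-5p, often transcribed with these and with let-7, differed by 1.12, and miR-125a-5p overlapped with a difference of −0.06.

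Of the list of miR-21, miR-31, miR-221 and miR-222, 5 of 6 were higher at day 19, with a median of 0.86 and 3 at an unadjusted p under 0.05. MiR-31 had 6.60 and 7.76 at day 19, against 6.03 and 5.37 at day 12. MiR-221, a repressor of the cell cycle inhibitor Cdkn1b, had 5.30 and 6.19 at day 19 and 4.96 and 3.54 at day 12. Its day 0 levels of 6.78 and 5.85 were above those of day 12. MiR-21, a repressor of Pdcd4, had 5.59 and 6.04 at day 19 and 5.05 and 4.35 at day 12, and it was higher again at day 26 with 8.24 and 7.18. In none of the 3 did the days overlap, although none passed the adjusted threshold. On the Febit array 3 of the 6 listed miRNAs were higher and 3 lower, with a median of 0.54. MiR-222 was at −1.83 there (limma adjusted p = 0.106), against 0.61 on the Affymetrix array.

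None of the classical heart miRNAs passed the adjusted threshold on the Affymetrix platform, and after VSN none of them reached an unadjusted p under 0.05. MiR-1 differed by 0.49 ± 0.59 (SE, limma adjusted p = 0.757) and overlapped between the days. MiR-133a, transcribed together with miR-1, measured 10.45 and 9.35 at day 19, against 10.85 and 10.37 at day 12, a difference of −0.71 ± 0.52 (SE, limma adjusted p = 0.570). MiR-133b differed by −0.57, miR-208a by −0.18, miR-499 by −0.37 and miR-208b by 0.56. MiR-206, typical of skeletal muscle, had 4.10 and 3.62 at day 19 and 2.71 and 1.90 at day 12, a difference of 1.56 with an unadjusted p of 0.0159 (limma adjusted p = 0.259). The striated muscle list of 9 therefore held only miR-206 and miR-486 under the unadjusted threshold, both higher, with a median of 0.00. On the Febit array miR-206 overlapped between the days, with raw intensities of 976 and 908 at day 19 and 940 and 992 at day 12. The paper, which compared each day with day 0, observed no increase of miR-206 and describes its sequence as closely related to miR-1. Cross-hybridization between them was not tested. After RMA, miR-133a and miR-133b were lower at day 19 without overlap and at an unadjusted p under 0.05, by −0.65 ± 0.25 (SE, limma adjusted p = 0.365) and −0.69 ± 0.24 (SE, limma adjusted p = 0.303).

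MiR-143 and miR-145 are transcribed together and define smooth muscle, and they are also active in early cardiac progenitors. MiR-145 had 11.12 and 10.60 at day 19, against 12.10 and 11.66 at day 12, a difference of −1.02 ± 0.45 (SE, limma adjusted p = 0.355). MiR-143 had 10.68 and 11.36 at day 19 and 11.63 and 11.45 at day 12, a difference of −0.52. On this platform both lay without overlap below day 12 and far above their day 0 levels of 4.40 to 6.52. The Febit array gave miR-145 the opposite sign, with raw intensities of 3497 and 4285 at day 19 and 1965 and 2845 at day 12. After VSN it differed there by 1.09 (limma adjusted p = 0.353), miR-145* by 2.57 (limma adjusted p = 0.0785) and miR-143 by −0.06.

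The ES cell clusters were lower on balance at day 19. Of all miRNAs, 369 of 609 were lower, with a median of −0.19. At an unadjusted p under 0.05, 8.87% of all miRNAs were lower and 4.76% higher. With each array centred on its median, the medians were −0.44 for the miR-290 cluster, −0.46 for the miR-302 cluster and 0.09 for all miRNAs. The miR-290 to miR-295 cluster, expressed in ES cells and the early embryo, had a median of −0.72 over 14 members with 3 lower and 1 higher at an unadjusted p under 0.05. The named lower members were miR-292-5p (−1.97), miR-291a-5p (−1.61) and miR-293 (−1.46), and the higher one was the passenger strand miR-293*. MiR-292-3p measured 5.31 and 7.25 at day 19, against 7.05 and 8.39 at day 12. Experiment b had the higher value on both days, so the days overlapped although the difference was −1.44. The miR-302 to miR-367 cluster had a median of −0.74 over 8 members, with 2 under the unadjusted threshold. These were miR-302d, with 5.71 and 4.48 at day 19 and 6.70 and 6.74 at day 12, and miR-302a, with 2.18 and 2.14 at day 19 and 3.53 and 3.40 at day 12. In ES cells of day 0 both were below their day 12 values, with 4.66 and 2.36 for miR-302d and 2.85 and 1.96 for miR-302a. None of these passed the adjusted threshold, and the share of remaining ES cells was not tested.

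Markers of other cell types moved little or unevenly. The 5 fibroblast and mesenchyme markers averaged 3.54 and 3.97 at day 19 and 3.89 and 4.28 at day 12, and none of the 6 miRNAs of that list reached an unadjusted p under 0.05. The endothelial miR-126-3p, from an intron of Egfl7, had 3.07 and 0.33 at day 19, against 3.43 and 4.28 at day 12, so the day 19 arrays differed from each other by more than day 19 a did from either day 12 array. The epithelial miR-200c, a repressor of Zeb1 and Zeb2, was high in b on both days, with 3.69 and 6.55 at day 19 and 3.88 and 8.07 at day 12. The blood markers averaged 1.94 and 2.05 at day 19 and 2.28 and 1.89 at day 12, and the nervous tissue markers 3.31 and 3.01 at day 19 and 3.70 and 3.61 at day 12. The part of such cells in the differences above was not tested.

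The remaining lists gave no call after VSN on the Affymetrix platform. The miR-23, miR-27 and miR-24 miRNAs had 8 of 9 members higher with a median of 0.34, with miR-23b at 0.42, miR-24 at 0.35, miR-23a at 0.12 and miR-27a at 0.02. In the miR-29 family, repressors of collagen genes, the median was 0.03, with miR-29a at −0.45, miR-29b at −0.14 and miR-29c at −0.05. In the miR-30 family, abundant in heart muscle, it was −0.08, with miR-30d at 0.50, miR-30a at 0.34, miR-30b at −0.13 and miR-30c at −0.70. No member of these 3 lists reached an unadjusted p under 0.05 after VSN. After RMA, miR-23b (0.59 ± 0.12, SE), miR-27b (1.07 ± 0.26, SE) and miR-30d (0.82 ± 0.14, SE) were higher at that threshold, with limma adjusted p = 0.110, 0.143 and 0.0839, and miR-30c was lower (−0.83 ± 0.24, SE, limma adjusted p = 0.215). In the miR-26 family, miR-26a differed by −0.22 and miR-26b by 0.51, and only the passenger strand miR-26b* was lower under that threshold (−1.19). The miR-15, miR-16, miR-195, miR-497, miR-322 and miR-503 miRNAs, many of which restrain the cell cycle, had a median of −0.32 and ranged between miR-195 at −1.04 and miR-497 at 0.67 among those named by the rule.

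Medians below the −0.19 of all miRNAs were found in some other lists. The median was −0.46 for the miR-130, miR-301 and miR-148 miRNAs, where miR-301a was lower (−1.47) and miR-148a higher (1.18) at an unadjusted p under 0.05. It was −0.36 for the miRNAs in introns of metabolic genes, with miR-378 at −0.18, miR-103 at −0.35, miR-107 at −0.37 and miR-33 at −0.93. The lists of nervous tissue, liver and gut, and miR-200 had medians of −0.54, −0.70 and −0.41, and only miR-200b (−1.47) and miR-200a (−1.24) among them were under the unadjusted threshold. The miR-34 and miR-449 list had a median of −0.18, near that of all miRNAs. In it miR-34c* (−1.83) and miR-34b-3p (−1.35) were lower at an unadjusted p under 0.05, miR-34c was at −0.96 and miR-34a at −0.17. Members of the miR-181 family differed by −0.82 (miR-181b) to 0.55 (miR-181c). The neuronal activity miRNAs miR-132 and miR-212, listed with miR-210, were at −0.38 and −0.47.

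In the 2 large genomic clusters the medians were −0.09 over 74 miRNAs of the imprinted Dlk1-Dio3 region and −0.37 over 50 of the Sfmbt2 cluster families. In the Dlk1-Dio3 region 2 were higher and 2 lower at an unadjusted p under 0.05, with miR-127 at −0.29, miR-134 at 0.04, miR-379 at 0.19 and miR-370 at 0.53. Of the Sfmbt2 families 1 was higher and 5 lower, among them miR-467a (−1.40). The medians of the striated muscle, miR-30, miR-26, hypoxia, miR-181, miR-34 and miR-449, endothelium and blood, and Dlk1-Dio3 lists were at or below 0 and turned above 0 when each array was centred on its median.

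**Figure D3:**
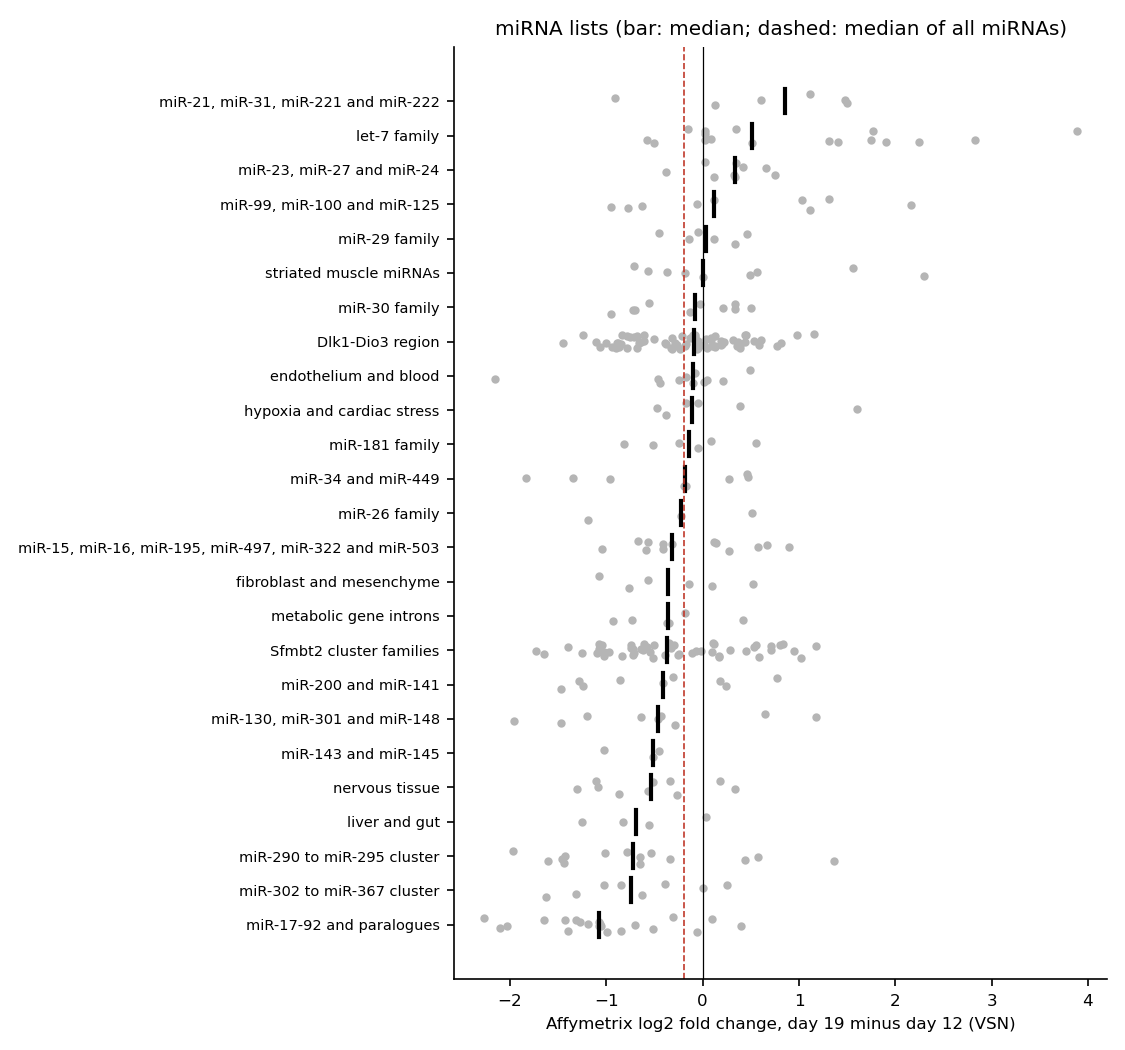
Affymetrix log2 fold changes (day 19 minus day 12, VSN) of the members of 25 miRNA lists, with 1 point per miRNA, a black bar for the median of the list and a dashed line for the median of all 609 miRNAs (−0.19). The list medians run from 0.86 for miR-21, miR-31, miR-221 and miR-222 to −1.08 for miR-17-92 and its paralogues, and the 2 points farthest to the right are let-7b and let-7c.

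The RMA values of the same hybridizations served as a check of the normalization and are no further replicates. Of 609 miRNAs, 2 rose (0.328%) and 3 fell (0.493%) at a limma adjusted p under 0.05. At an unadjusted p under 0.05, 32 were higher (5.25%) and 45 lower (7.39%), and the days did not overlap for 107 above (17.6%) and 161 below (26.4%). None of the 5 called after RMA was among the 2 called after VSN. let-7g measured 7.46 and 7.44 at day 19, against 6.03 and 6.21 at day 12, and rose by 1.33 ± 0.13 (SE, limma adjusted p = 0.0212). MiR-486 had 8.34 and 7.70 at day 19, against 5.81 and 5.97 at day 12, and rose by 2.13 ± 0.30 (SE). MiR-17 had 7.49 and 7.94 at day 19, against 9.19 and 9.13 at day 12, and fell by 1.44 ± 0.19 on the log2 scale (SE). MiR-20a had 7.17 and 7.15 at day 19, against 8.15 and 8.35 at day 12, and fell by 1.09 ± 0.15 on the log2 scale (SE). MiR-106a had 5.35 and 5.76 at day 19, against 7.08 and 6.92 at day 12, and fell by 1.45 ± 0.21 on the log2 scale (SE). The limma adjusted p was 0.0434 for each of these 4.

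let-7b and let-7c differed by 3.35 and 2.74 after RMA, with limma adjusted p = 0.114 and 0.0990. All 9 let-7 members were again higher without overlap (median 1.59) and all 6 miR-17 members lower without overlap (median −1.26). Every RMA call was lost when any 1 of the 4 arrays was left out. VSN and RMA differences correlated across miRNAs (r = 0.89) and had the same sign for 557 of 609 (91.5%). The 50 miRNAs with an unadjusted p under 0.05 after both normalizations were 60.2% of those after VSN and 64.9% of those after RMA, 20 of them higher and 30 lower.

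The Febit arrays gave many more calls. Of 710 miRNAs, 65 rose (9.15%) and 26 fell (3.66%) at a limma adjusted p under 0.05, while 122 were higher (17.2%) and 96 lower (13.5%) at an unadjusted p under 0.05. The days were separate for 235 miRNAs above (33.1%) and 242 below (34.1%). These counts involve the day 12 arrays whose ranks stood apart from the other Febit arrays, and none of the 91 calls was left when any 1 of the 4 arrays of both days was omitted. They also had raw intensities near the array median. A mean raw intensity of at least 1.5 times the array median was reached by 4 of the 65 miRNAs called higher. It was reached by 0 of the 26 called lower and by 98 of all 710 miRNAs. This mean is over 8 arrays and includes day 26 b, whose median was 228. Among those called higher the median raw intensities were 1084 and 1040 at day 19, against 892 and 868 at day 12, a median log2 difference of 0.27 in raw intensity, while the median difference of the deposited VSN values was 2.91. Among those called lower they were 788 and 786 at day 19 and 980 and 1014 at day 12. Features without a value made up 4.70% and 2.66% of 5680 at day 19 and 0.775% and 0.511% at day 12.

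**Figure D4:**
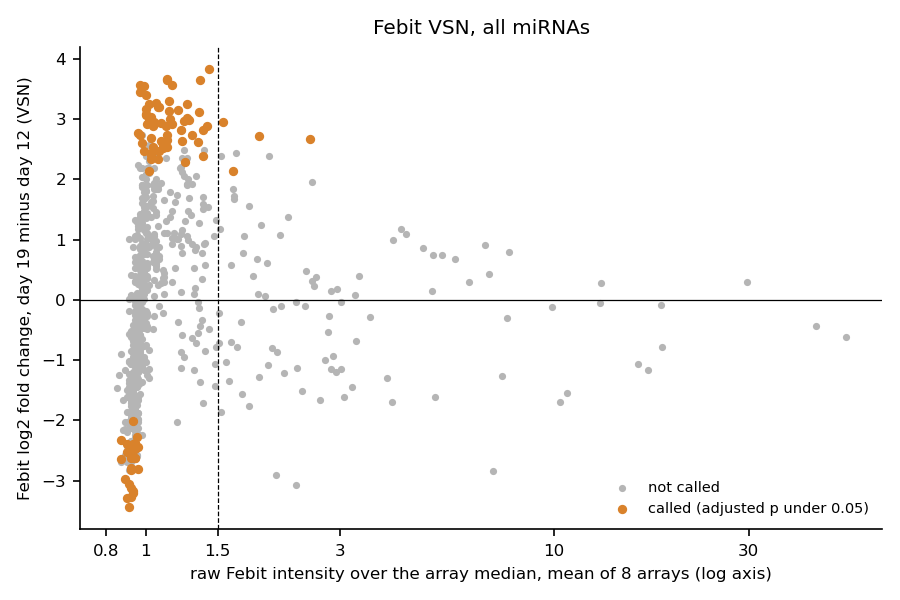
Log2 fold change of each of 710 miRNAs on the Febit array (day 19 minus day 12, VSN) plotted over its raw intensity divided by the array median, mean of 8 arrays on a log axis, with the 91 miRNAs called at a limma adjusted p under 0.05 in orange and a dashed line at 1.5. The orange points cluster around 1, the array median, and only 4 lie to the right of the line.

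The 4 called miRNAs with a mean raw intensity above that level were miR-21, miR-29a, miR-30a and miR-133b. The mean includes day 26 b, with a median of 228, where miR-29a had 1516, miR-30a 948 and miR-133b 912. On the arrays of days 12 and 19, with medians of 928 to 984, miR-29a and miR-30a stayed below 1.5 times the array median. MiR-21 had raw intensities of 2049 and 1640 at day 19, against 1064 and 1012 at day 12, and rose by 2.67 ± 0.64 after VSN (SE, limma adjusted p = 0.0267). MiR-133b had 1568 and 1344 at day 19, against 992 and 1064 at day 12, and rose by 2.13 ± 0.62 (SE, limma adjusted p = 0.0499). MiR-29a had 1384 and 1040 at day 19 and 932 and 904 at day 12, and miR-30a 1208 and 1072 at day 19 and 900 and 900 at day 12. Only miR-21 of these 4 was higher on the Affymetrix array without overlap.

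Several heart miRNAs were called on the Febit array and not on the Affymetrix array. Of the 9 striated muscle miRNAs, 4 reached 1.5 times the array median in mean raw intensity over the 8 arrays. Of those called only miR-133b did. MiR-499 had raw intensities of 1160 and 1092 at day 19, against 936 and 868 at day 12, and rose by 2.81 after VSN (limma adjusted p = 0.0232). MiR-208b had 1528 and 1712 at day 19, against 1040 and 936 at day 12, and rose by 2.89 (limma adjusted p = 0.0282). MiR-208a, from the gene whose promoter drives the selection cassette, had 1845 and 2205 at day 19 and 2385 and 1885 at day 12, above its 972 and 840 at day 0, and differed by −0.04 after VSN. MiR-1 had 2945 and 3801 at day 19, against 1893 and 2141 at day 12, a VSN difference of 1.18 (limma adjusted p = 0.241). MiR-133a had 4753 and 3597 at day 19, against 2933 and 3045 at day 12. Its VSN difference of 0.67 (limma adjusted p = 0.488) had the opposite sign to those on the Affymetrix array. With miR-133b, miR-133a* and miR-486, 5 of the 9 striated muscle miRNAs were called higher, against 9.15% of all miRNAs.

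The other Febit calls of the largest size were mostly of miRNAs near the array median. The 10 highest called were miR-1274a (3.83), miR-291a-3p (3.66), miR-361 (3.64), miR-382 (3.64), miR-1939 (3.57), miR-615-5p (3.56), miR-33* (3.54), miR-1981 (3.44), miR-384-5p (3.40) and miR-411 (3.30). The 10 lowest were miR-105 (−3.44), miR-1934 (−3.29), miR-873 (−3.27), miR-34b-5p (−3.20), miR-743a (−3.18), miR-704 (−3.12), miR-509-3p (−3.05), miR-154* (−2.98), miR-878-5p (−2.82) and miR-92b (−2.80). MiR-361, for example, had raw intensities of 1552 and 1228 at day 19, against 896 and 920 at day 12, but 8.86 and 8.66 at day 19 and 9.07 and 8.68 at day 12 on the Affymetrix array. Of these 20, none that is also on the Affymetrix array had an unadjusted p under 0.05 there, and the differences there ran from −0.71 to 0.58.

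Among the brighter Febit miRNAs the day 12 arrays also differed from each other. MiR-214, of the mesenchymal miR-199 and miR-214 transcript Dnm3os, had raw intensities of 1208 and 1028 at day 19, against 4913 and 1965 at day 12, and miR-709 had 2421 and 1628 at day 19, against 23274 and 3857 at day 12. Neither was called (−2.91 and −2.84 after VSN), and both were chosen here to show the spread after their values were seen. On the Affymetrix array miR-214 overlapped between the days, with a difference of 0.10. MiR-199a-3p of the same transcript fell on the Febit array by 2.27 on the log2 scale (limma adjusted p = 0.0436) and had 2.76 and 3.29 at day 19 and 3.79 and 3.78 at day 12 on the Affymetrix array, a difference of −0.76. Of the other lists, the Febit calls included miR-181a (2.92), miR-181c (3.26) and the nervous tissue miRNA miR-128 (2.65), all higher at day 19, whose Affymetrix differences were 0.09, 0.55 and −0.34.

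Across the 608 miRNAs on both arrays, the differences between day 19 and day 12 showed no relation between the platforms. Pearson's r was −0.02 and Spearman's rho −0.03, and 314 (51.6%) had the same sign. Restricted to 84 miRNAs with a mean raw Febit intensity over the 8 arrays of at least 1.5 times the array median, r was 0.05. Of these, 47 had the same sign. Of the 80 Febit calls on both arrays 39 had the same sign. At an unadjusted p under 0.05 were 82 of the 608 on the Affymetrix array and 189 of the 608 on the Febit array. Under it on both platforms were 21 miRNAs, 25.6% of the 82 and 11.1% of the 189. These shares were no higher than those of 189 and of 82 among all 608, so the overlap was no excess. Of the 21 miRNAs, 8 were higher and 4 lower on both, and 9 had opposite signs.

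**Figure D5:**
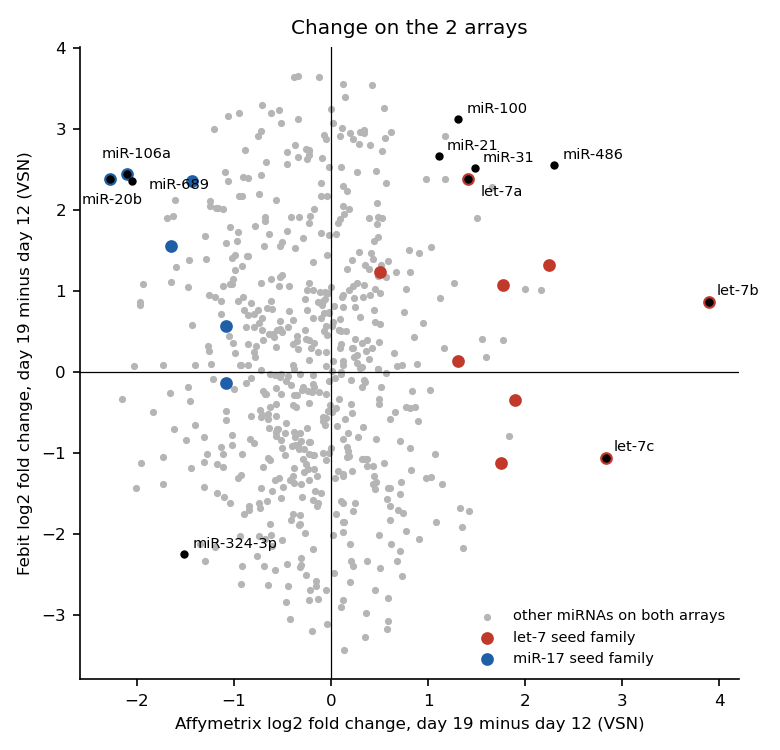
Log2 fold changes (day 19 minus day 12, VSN) of the 608 miRNAs on both arrays, Affymetrix on the horizontal and Febit on the vertical axis, with the let-7 seed family in red and the miR-17 seed family in blue. MiR-486, miR-21, miR-31, miR-100 and let-7a lie in the upper right, whereas 5 of the 6 blue points lie in the upper left, lower on the Affymetrix and higher on the Febit array.

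The 8 that were higher on both platforms were miR-486, let-7a, miR-31, miR-100, miR-21, miR-542-3p, miR-669g and miR-770-3p. MiR-486 had Febit VSN values of 7.98 and 8.64 at day 19, against 4.95 and 6.56 at day 12, and rose by 2.56 ± 0.74 (SE, limma adjusted p = 0.0497). It was thus separate between the days in all 3 data sets and called in the Febit and RMA sets. MiR-100 had 8.44 and 7.80 at day 19 and 4.38 and 5.62 at day 12 on the Febit array and rose by 3.12 (limma adjusted p = 0.0282). MiR-31 had 7.39 and 6.92 at day 19 and 4.56 and 4.70 at day 12 there and rose by 2.52 (limma adjusted p = 0.0237). MiR-669g of the Sfmbt2 cluster and miR-542-3p were called on the Febit array as well, whereas let-7a, with 8.52 and 7.30 at day 19 and 4.75 and 6.31 at day 12, was not (limma adjusted p = 0.0785). The raw Febit intensities of most of these were near the array median as well, with 1124 and 1208 at day 19 and 896 and 976 at day 12 for miR-486, 1024 and 940 at day 19 and 880 and 864 at day 12 for miR-31, and 1012 and 1008 at day 19 and 884 and 848 at day 12 for miR-669g. Only miR-21 and let-7a averaged at least 1.5 times the array median over the 8 arrays. For let-7a this includes an intensity of 1773 on the day 26 b array, whose median was 228.
miR-21: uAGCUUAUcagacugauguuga
miR-31: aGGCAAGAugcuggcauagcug
These sequences share no seed with each other or with the let-7, miR-17 and miR-99 groups. The 4 that were lower on both were miR-324-3p, miR-34b-3p of the p53-responsive miR-34 family, miR-504 and miR-883a-5p. MiR-883a-5p fell on the Febit array to 4.36 and 4.10 at day 19, against 7.06 and 6.65 at day 12 (limma adjusted p = 0.0232). On the Affymetrix array it was low, with 0.33 and 0.29 at day 19 and 1.20 and 1.29 at day 12.

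Both seed families were less uniform on the Febit array. Of the 9 let-7 members, 6 were higher and 3 lower at day 19, with a median of 0.87 (−1.13 to 2.38) and none called. let-7b differed by 0.87, with raw intensities of 1040 and 936 at day 19 and 968 and 948 at day 12, all near the array median. let-7c differed by −1.06, with 980 and 808 at day 19 and 984 and 1004 at day 12. The rise of these 2 miRNAs was thus not seen on the second platform, where their signal was near the array median. Between day 26 and day 19 the Febit array showed all 9 members higher at day 26, by a median of 2.11. The day 26 values include day 26 b, with its median raw intensity of 228.

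In the miR-17 family the platforms opposed each other. MiR-20b had Febit VSN values of 8.25 and 8.72 at day 19, against 5.95 and 6.25 at day 12, and rose by 2.39 ± 0.59 (SE, limma adjusted p = 0.0305). Its raw intensities were 1184 and 1232 at day 19 and 940 and 952 at day 12. MiR-106a and miR-20a were higher by 2.44 and 2.36 and miR-17 by 1.56, the last with raw intensities of 1384 and 1464 at day 19 and 928 and 1712 at day 12. Day 12 a was thus low and day 12 b high for miR-17. The family had a median of 1.96 on the Febit array with 5 of 6 higher. MiR-689, a poorly characterized miRNA, was the remaining named case, with 3.35 and 2.91 at day 19 and 4.76 and 5.60 at day 12 on the Affymetrix array but 7.82 and 7.30 at day 19 and 5.15 and 5.25 at day 12 on the Febit array. Which platform gives the direction in the cells was not tested.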

How the data were processed

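Total RNA of 2 independent experiments per day was hybridized to Affymetrix and Febit miRNA arrays. The authors deposited Affymetrix values as log2 after RMA (affy) and after VSN, and Febit values as log2 after VSN, each with a value per miRNA. Raw Febit intensity per feature was deposited too. Its median per miRNA was used here to describe the signal, as a filter and in an alternative fit. Quantile-normalized Febit values were left out because 2 titles carried each other's values. For each data set, a mean per day was fitted to all 8 arrays (4 residual degrees of freedom) with limma 3.58.1 (R 4.3.3), and p-values of day 19 minus day 12 were adjusted over all miRNAs (Benjamini-Hochberg). Called means an adjusted p under 0.05. The number of arrays limits the precision. The fit was tested on simulated data.

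The comparison, the 25 miRNA lists and the markers were chosen with earlier results of these data known. Named were all called miRNAs of a direction with at most 20 calls, otherwise the 10 with the largest change; up to 8 per direction with 1 sign and an unadjusted p under 0.05 on both platforms; up to 4 with opposite signs; and the first 4 members of each list, described individually or by their list. Further members are named to show a family or list, and were chosen with their values known. Alternatives were array centring, quantile normalization, level and presence filters, fits to 4 arrays, with variance trend, with replicate block and without each array, and 4 for Febit chosen after seeing the data. Sequences and loci came from RefSeq (GRCm38.p6).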

Additional observations from a re-analysis of the deposited data

How the results depend on the processing

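The 2 Affymetrix VSN calls became 0 after quantile normalization, 5 among the brighter miRNAs (upper 304 by mean level), 1 (let-7b) from the 4 arrays of both days alone and 8 with trend and robust variances, and 0 to 3 when 1 array was left out. let-7b passed in 8 of 11 alternatives (limma adjusted p 0.00825 to 0.227) and let-7c in 6 (0.00386 to 0.281), and neither changed direction on that platform. Among the 18 Affymetrix VSN miRNAs recomputed (called, or named for an unadjusted p under 0.05 on both platforms), no scaling turned a direction, but with Febit VSN values let-7c was −1.06, miR-106a 2.44, miR-20a 2.36, miR-20b 2.39 and miR-689 2.36. The 5 RMA calls became 1 after centring, 3 after quantile normalization, 0 from 4 arrays and 0 with trend and robust variances. They did not hold when 1 of the 4 arrays of both days was left out. The 91 Febit calls became 47 among the upper 355 by mean level (all higher), 57 without day 26 b, 0 among the 98 miRNAs above 1.5 times the raw array median, 0 on log2 raw intensity and 0 whichever array was left out. The labels do not say that a and b pair samples across days. The a minus b differences of days 19 and 12 correlated at 0.30 (Affymetrix VSN), 0.51 (RMA) and 0.04 (Febit) across miRNAs. With a replicate block the calls were 10 (let-7b, let-7c, let-7f, miR-486 and miR-99a higher, miR-20b, miR-106a, miR-19b, miR-501-5p and miR-675-5p lower), 0 and 76. The causes were not tested. With 2 arrays a day, differences near the median standard error (0.51, 0.18 and 0.72 on the log2 scale for Affymetrix VSN, RMA and Febit VSN) are not detectable. Much larger ones can also miss the adjusted threshold, as miR-20b did after Affymetrix VSN (−2.27 ± 0.46, SE).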

Other observations

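A group of miRNAs from introns of Clcn5 on the X chromosome (miR-188, miR-362, miR-500, miR-501 and miR-532), chosen after their values were seen, gave opposite signs on the platforms. On the Affymetrix array 8 of 9 were lower at day 19 after VSN, with a median of −0.72 (−1.97 to 0.59), and 8 of 9 after RMA, with a median of −0.39. MiR-501-5p had log2 levels of 3.28 and 2.39 at day 19, against 5.02 and 4.60 at day 12, and miR-362-5p 4.59 and 4.99 at day 19, against 6.24 and 5.80 at day 12. On the Febit array all 9 were higher at day 19, with a median of 1.10.

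Both miRNAs processed from the H19 hairpin, miR-675-5p and miR-675-3p, were lower at day 19 on the Affymetrix array. MiR-675-5p had 0.94 and 2.12 at day 19, against 3.50 and 3.58 at day 12, and miR-675-3p 2.14 and 2.29 at day 19, against 3.48 and 3.31 at day 12. On the Febit array miR-675-5p differed by −1.44 and miR-675-3p by 2.03. These miRNAs too were chosen after their values were seen.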
